A study of Mus musculus with 8 samples.

Results

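In mouse liver given the adenovirus AdLeXis, 19 named features of an expression microarray, called members below, stood above the scanner's detection limit that they did not reach in liver given AdGFP. Members were selected on these same arrays. A name qualified when none of its probes carried the scanner's well-above-background flag on the 4 AdGFP arrays, at least 1 probe carried it on the 4 AdLeXis arrays, and that probe's mean log2 intensity, scaled on each array's 75th percentile, was at least 2 higher in AdLeXis. Names of bare chromosome regions and of Rik clones were not eligible. Of 34836 names on the array, 27615 were eligible, 101 met the detection part and 24 the whole rule. Rbp7, Adra2a, Wfdc16, Eda2r and Sult2a1 were set aside by the rule itself, which left 19: 14 gene symbols, 1 transcript identifier and 4 features known by probe name only. In the opposite direction 1 name met the detection part and 0 met the whole rule.

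The AdLeXis group comprised 4 liver RNA samples from bl6 mice transduced with an adenovirus for LeXis, a long non-coding RNA encoded beside the cholesterol efflux gene Abca1. The AdGFP group comprised 4 samples from mice given a virus for green fluorescent protein. Both groups were 12 weeks old, ate chow and gave RNA on day 6. The treatment protocol in the labels instead names control and shRaly block-iT vectors, so groups follow the treatment tag, which the 3 probes of the LeXis region matched (9.05 to 10.7 on every AdLeXis array). The labels do not state that samples were separate animals, so p-values measure only the spread between samples. RNA came from whole tissue, where a change in the number of cells of a type and a change in RNA per cell cannot be told apart.

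A scanner flag is a threshold, not a statement about whether a transcript exists. Agilent's software calls a spot well above background when its corrected signal clears the local noise by a set margin, and it gives a softer flag, positive and significant, to spots that merely exceed the background. A gene crossing the upper threshold in one group may therefore have been weakly present in the other. The members span unrelated functions: enzymes of oxidation, sulfation and folate metabolism (chr10:82950571-82950630), proteases, membrane proteins, motor proteins, and proteins of DNA repair and ubiquitin signalling. Several are best known outside the liver, such as an odorant receptor and a pancreatic elastase.

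Probe sequences are shown for the features whose identity or cross-hybridisation bears on the results. They are stretches of at most 30 bases of the 60-base probes, read 5′ to 3′ from the deposited files, with coordinates on mouse build mm9; exon and UTR annotation of that build was not used here. Capitals mark the bases at which 2 probes of a pair differ. By the files, the Sult2a2, A_55_P2022622, LOC101055823, A_55_P2015122 and A_55_P1989248 probes lie on the plus strand and the others shown on the minus strand. The Sult2a2 probe (chr7:14364926-14364985) matched the Sult2a1 probe (chr7:14381602-14381661) at 54 of 59 aligned bases, and the Sult2a4 probe (chr7:14495026-14495085) at 47 of 53.
Sult2a2: ctgttgttCtAtatcttgaatacctGAatA
Sult2a1: ctgttgttGtGtatcttgaatacctAGatG
The next pair covers the part shared with Sult2a4.
Sult2a2: ctGAatAtggtcatagaataaaAcctgttG
Sult2a4: ctAGatGtggtcatagaataaaTcctgttC
The Cela3b probe (chr4:136979192-136979251) and a Gm13011 probe (chr4:136959734-136959793) matched at 52 of 58 bases.
Cela3b: gtggAactggtggggcTTGtCtgtgaagaC
Gm13011: gtggGactggtggggcCACtAtgtgaagaG
Member A_55_P2022622 (chr12:19561847-19561906) matched the probe of LOC101055823 (chr12:18781159-18781218) at 52 of 59 bases.
A_55_P2022622: ccTagaagTgaacagaTGagatcttcagGA
LOC101055823: ccGagaagCgaacagaCAagatcttcagAC

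The other 3 features without a gene name are identified by their first 30 bases and position. They were A_55_P2015122 (chr4:143616775-143616834), A_55_P2056571 (chr3:81721930-81721989) and A_55_P1989248 (chr7:14432715-14432774).
A_55_P2015122: ggtcctccaagaggttaaaaactcgctcta
A_55_P2056571: tgacgttccttccgatatgacatgtaccgt
A_55_P1989248: agattgtatgcttgattcagaccaagggag

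Across the 19 members the mean scaled log2 intensity ran between 3.63 and 5.81 in AdLeXis (median 4.29) and between 0.93 and 2.48 in AdGFP (median 1.77). The measured log2 difference ran from 2.06 to 4.16, with a median of 2.76. Every AdGFP value lies under the detection flag, so the size of each difference is only bounded. Against the lowest spot that was well above background on each AdGFP array (scaled log2 2.58 to 2.99), or the probe's own AdGFP value where that was higher, the members were at least 1.73-fold to at least 7.82-fold higher, with a median of at least 2.72-fold. The bound exceeded 2-fold for 17 of 19 members. These bounds, and those given below, hold only for the processed intensity on this scaling. After normexp correction the median log2 difference was 0.37 (0.14 to 0.90). Nor is the lowest flagged spot a ceiling for unflagged ones, since Slc24a4 reached 3.53 on AdGFP replicate 1 without the flag. The 4 AdLeXis values lay above the 4 AdGFP values for 18 of 19 members, the exception being Slc24a4. The rule itself favours such separation, so nothing is read from it, here or for single members below. Over all 23951 genes tested with limma, 17.5% were called at an adjusted p under 0.05, 8.74% higher and 8.78% lower in AdLeXis, but the same contrast chose the members, so nothing is read from their count. All 19 passed the filter on dim probes, and only through their AdLeXis arrays.

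**Figure D1:**
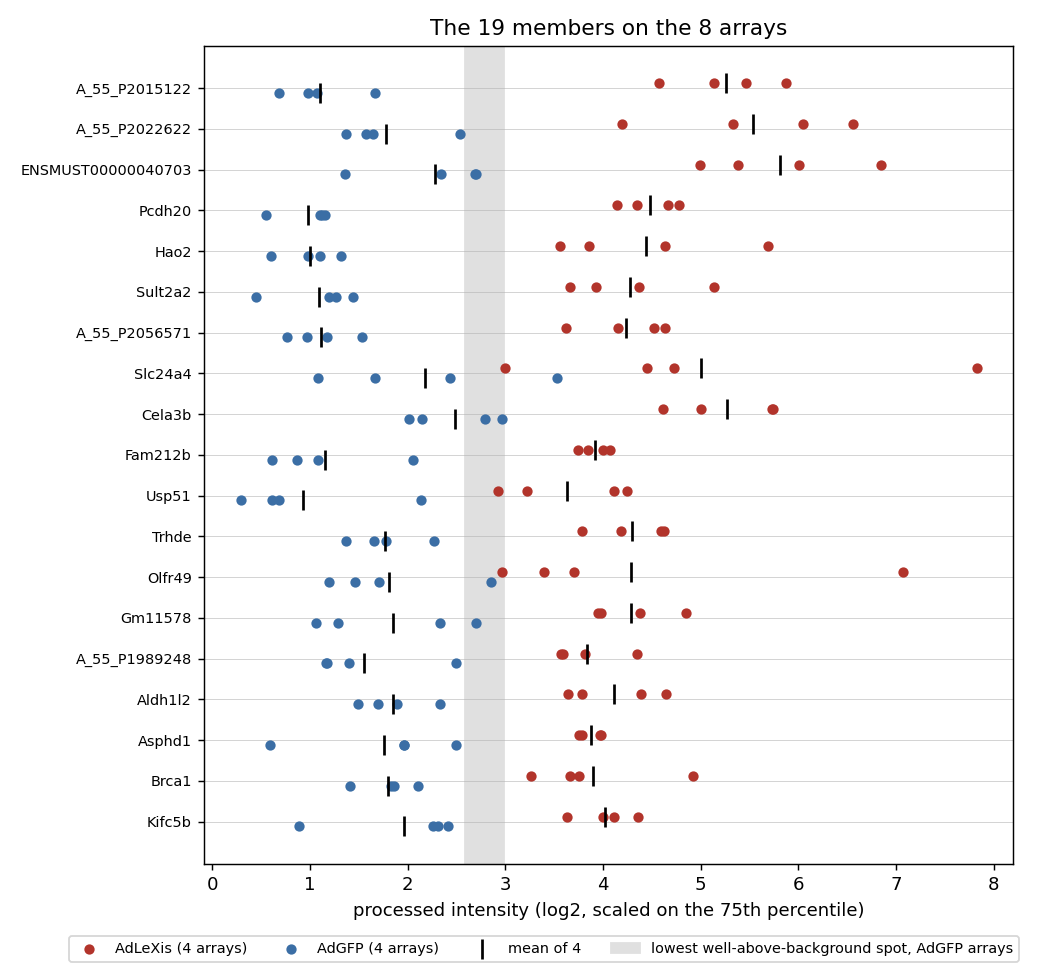
Scaled log2 processed intensity (x axis) of the 19 members (rows, ordered by difference) on the 4 AdLeXis arrays (red) and the 4 AdGFP arrays (blue), with the mean of each group as a black tick. The grey band spans the lowest well-above-background spot of the 4 AdGFP arrays (2.58 to 2.99). Only the Slc24a4 points overlap between groups, a separation that the rule favours.

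The arrays themselves differed between groups. The 75th percentile of the processed intensity was 381 to 448 on AdLeXis arrays and 220 to 297 on AdGFP arrays (exact permutation p = 0.0286, two-sided, the smallest that 70 relabellings allow). The share of spots well above background was 62.6% to 67.7% on AdLeXis arrays and 58.9% to 62.5% on AdGFP arrays (exact permutation p = 0.0286). The lowest detected spot lay at a scaled log2 of 2.44 to 2.87 on AdLeXis arrays and 2.58 to 2.99 on AdGFP arrays. The part of this brightness difference in the members' detection was not tested. Of 7374 eligible names with no probe well above background on AdGFP arrays, 1.37% met the detection part of the rule and 0.325% the whole rule.

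The softer flag gave another picture of the AdGFP arrays. All 19 members were positive and significant on the 4 AdLeXis arrays, and 17 of 19 were also positive and significant on at least 1 AdGFP array. ENSMUST00000040703, Cela3b, Gm11578, A_55_P1989248 and Aldh1l2 carried it on all 4 AdGFP arrays, and A_55_P2015122 and A_55_P2056571 on 0. With the softer flag in place of the stricter one, 8 names met the rule, of which 2 are members. A_55_P2015122 and A_55_P2056571 were thus detected in AdLeXis alone by either flag, and the other 17 by the stricter flag.

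**Figure D2:**
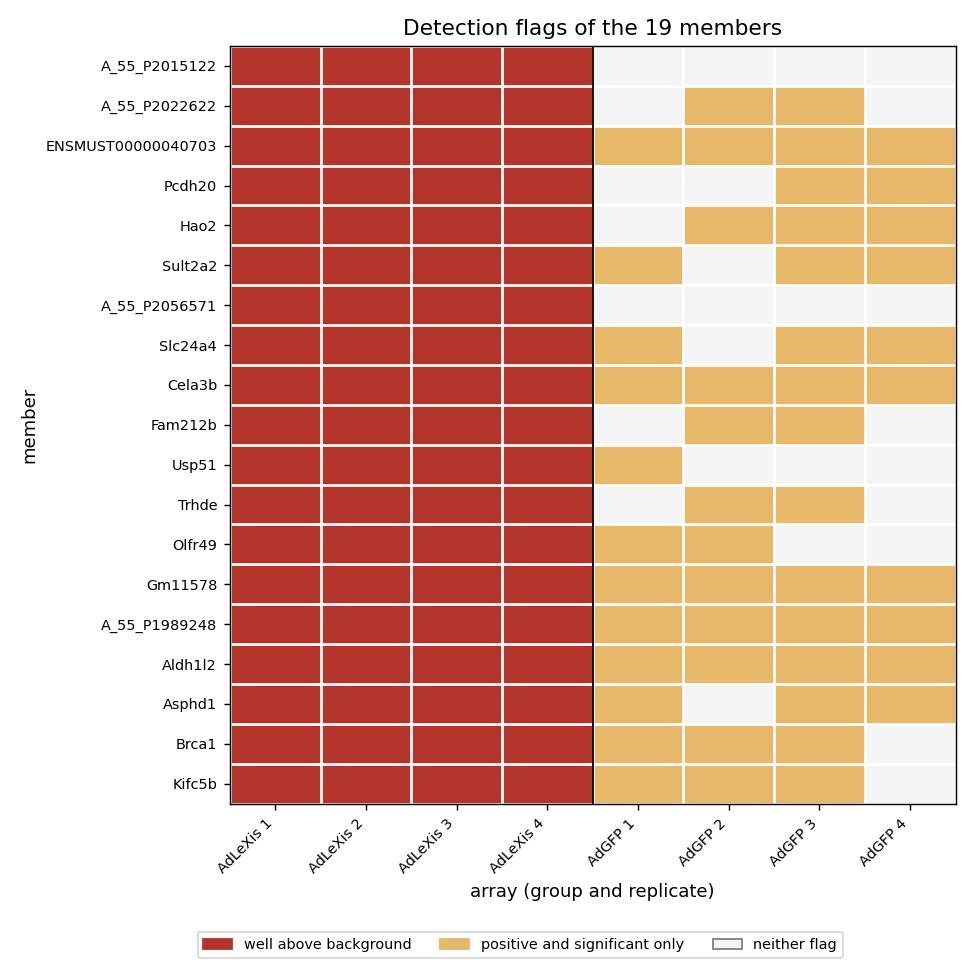
Detection flag of each member (rows) on each array (columns, AdLeXis left, AdGFP right): red for well above background, yellow for positive and significant only, pale grey for neither. The AdLeXis columns are red throughout, as the rule requires, and in the AdGFP columns 17 of 19 members have at least 1 yellow cell.

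Enzymes of small-molecule metabolism formed one group. Hao2, a peroxisomal oxidase of 2-hydroxy acids (chr3:98678664-98678723), had 5.69, 3.86, 3.56 and 4.64 on AdLeXis arrays, against 1.1, 0.60, 0.98 and 1.32 on AdGFP arrays (scaled log2). It averaged 4.44 ± 0.95 in AdLeXis and 1.0 ± 0.30 in AdGFP (SD, n = 4 each), at least 3.02-fold higher, and AdLeXis replicate 1 stood highest. Hao2 was the member printed most often: 10 spots an array, of which 10 of 10 were well above background on each AdLeXis array and 0 on each AdGFP array. The SD among those spots was 0.10 to 0.29 within an AdLeXis array, smaller than the spread between the AdLeXis arrays. Hao2 had outlier flags on 3 of 10 spots on AdLeXis replicate 1 and on 1 of 10 on AdLeXis replicate 4, all kept in these values. Its liver-enriched relative Hao1, glycolate oxidase, gave a log2 difference of 0.03 (limma adjusted p = 0.937). The 3 tested neighbours of Hao2 within 200 kb, the steroid dehydrogenase genes Hsd3b2, Hsd3b3 and Hsd3b6, were not called (0 also at an unadjusted p under 0.05).

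Sult2a2, a cytosolic sulfotransferase of hydroxysteroids and bile acids, had 3.66, 5.13, 3.93 and 4.37 on AdLeXis arrays, against 1.20, 0.45, 1.27 and 1.44 on AdGFP arrays. It was at least 2.70-fold higher, with no overlap between groups, which the rule favours. The nameless feature A_55_P1989248 lies 67.8 kb from the Sult2a2 probe and had 3.57, 4.35, 3.82 and 3.60 on AdLeXis arrays, against 1.40, 1.16, 1.17 and 2.50 on AdGFP arrays, at least 1.99-fold higher. Between both lies the Sult2a1 probe, set aside by the rule, with a log2 difference of 2.83. Sult2a1 and Sult2a2 probes are close in sequence, as printed above, and hybridisation of one transcript to both was not tested. The Sult2a4 probe was not well above background on any array (log2 difference -0.49), nor was the Sult2a3 probe (-0.32).

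Further along the cluster, 1 of the 3 Sult2a6 probes was well above background on 2 AdLeXis and 0 AdGFP arrays (log2 difference 1.38), and the other 2 on no array. The Gm5585 probe, 553 kb from Sult2a2, was well above background on 4 AdLeXis and 3 AdGFP arrays and gave 1.23 (named after its value was seen). The 2810007J24Rik probe, now named Sult2a8 and 631 kb from Sult2a2, was detected on all 8 arrays and gave -0.48 (named after its value was seen). It had 13.7, 14.2, 14.8 and 13.9 on AdLeXis arrays, against 14.7, 14.4, 14.8 and 14.5 on AdGFP arrays. Sult2a7, 686 kb from Sult2a2, was detected on all 8 arrays, with 7.75, 8.08, 7.59 and 7.65 on AdLeXis arrays, against 5.74, 6.39, 6.62 and 6.70 on AdGFP arrays. It was called higher (log2 difference 1.40, SE 0.21, limma adjusted p = 0.00451, named after its value was seen). It passed under all 16 alternatives, with 0.86 under normexp. On the other side of Sult2a2 the nearest probe, the nameless A_55_P2142937, was detected on all 8 arrays and gave -0.21.

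**Figure D3:**
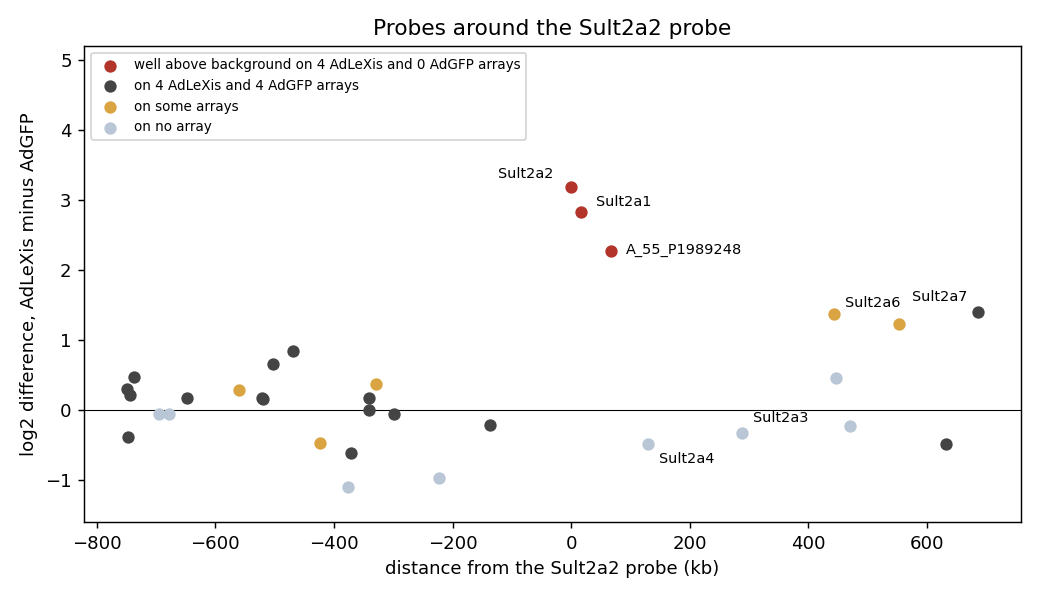
Log2 difference, AdLeXis minus AdGFP (y axis), of the probes around the Sult2a2 probe, against distance in kb (x axis). Colour gives detection: the 3 red probes, Sult2a2, Sult2a1 and A_55_P1989248, lie within 67.8 kb of each other at 2.28 to 3.18, whereas Sult2a4 and Sult2a3 sit below 0 and are detected nowhere.

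Aldh1l2, the mitochondrial 10-formyltetrahydrofolate dehydrogenase of folate metabolism, ran from 3.65 to 4.65 in AdLeXis and from 1.49 to 2.33 in AdGFP, at least 2.42-fold higher. Its cytosolic counterpart Aldh1l1, abundant in liver, gave -0.33 (limma adjusted p = 0.075).

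The proteases were Cela3b and Trhde. Cela3b, a pancreatic elastase, had 5.01, 5.74, 4.62 and 5.73 on AdLeXis arrays, against 2.15, 2.01, 2.79 and 2.97 on AdGFP arrays, at least 5.41-fold higher. The 2 probes of its neighbour Gm13011, now named Cela3a, moved the same way. The first had 4.92, 6.01, 4.80 and 5.43 on AdLeXis arrays, against 3.0, 3.61, 3.59 and 4.14 on AdGFP arrays. It was called (1.70, SE 0.31, limma adjusted p = 0.00904, named after its value was seen), with 0.48 under normexp and 3.04 as the mean of its probes. This probe resembles the Cela3b probe at 52 of 58 bases. The second Gm13011 probe was well above background on all 4 AdLeXis and 0 AdGFP arrays, at least 5.91-fold higher. Other pancreatic elastases did not pass: Cela2a gave -0.64 (limma adjusted p = 0.138) and Cela1 0.39 (0.147). Of 9 pancreatic acinar cell markers, 4 were tested and 0 called by limma (without adjustment, p fell under 0.05 for 1 higher and 1 lower), while Cpa1, Cpb1 and Pnlip stayed below the detection flag on all 8 arrays. The summed level of that list was 7.47 to 7.93 on AdLeXis arrays and 7.75 to 8.03 on AdGFP arrays (log2).

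Trhde, an ectoenzyme that cleaves thyrotropin-releasing hormone (chr10:113836328-113836387), had 3.79, 4.59, 4.19 and 4.62 on AdLeXis arrays, against 1.37, 1.65, 2.27 and 1.78 on AdGFP arrays, at least 2.75-fold higher. The lowest AdLeXis value stood 1.51 above the highest AdGFP value, a separation that the rule favours.

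The membrane proteins were Pcdh20, Slc24a4 and Olfr49. Pcdh20, a protocadherin of cell adhesion (chr14:88865889-88865948), had 4.14, 4.67, 4.35 and 4.78 on AdLeXis arrays, against 1.11, 0.55, 1.12 and 1.16 on AdGFP arrays. It averaged 4.48 ± 0.29 in AdLeXis and 0.98 ± 0.29 in AdGFP (SD, n = 4 each), at least 3.13-fold higher, with the widest gap between groups of any member (2.99). None of 8 tested Pcdh relatives was called by limma (without adjustment, p fell under 0.05 for 1 higher and 2 lower). Pcdh9 gave 0.70 and Pcdh7 -0.80, neither past the threshold.

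Slc24a4, a potassium-dependent sodium and calcium exchanger (chr12:103504900-103504959), had 4.45, 2.99, 7.83 and 4.72 on AdLeXis arrays, against 3.53, 1.08, 2.44 and 1.67 on AdGFP arrays. The groups overlapped, since AdLeXis replicate 2 lay below AdGFP replicate 1, and AdLeXis replicate 3 was far above the rest. That spot carried an outlier flag, and without it the difference was 1.88 (AdLeXis mean 4.06 ± 0.93, n = 3; AdGFP mean 2.18 ± 1.06, n = 4; SD), under the rule's minimum of 2. Its relatives Slc24a3 (0.13) and Slc24a5 (0.0022) were not called.

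Olfr49, an odorant receptor gene (chr14:54901632-54901691), had 3.71, 2.97, 3.40 and 7.07 on AdLeXis arrays, against 2.86, 1.46, 1.19 and 1.71 on AdGFP arrays. Its value also rested on 1 array: the spot on AdLeXis replicate 4 was an outlier by the scanner's flag, and the difference without it was 1.55 (AdLeXis mean 3.36 ± 0.37, n = 3; AdGFP mean 1.81 ± 0.73, n = 4; SD). Of 1085 Olfr relatives on the array, only 200 passed the filter on dim probes and were tested. Of these, 3 were higher and 4 lower, with a median of -0.02, beside 17.5% called over all genes. The part of probe brightness in that smaller share was not tested.

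Motor proteins, DNA repair and ubiquitin signalling made up a further group. ENSMUST00000040703, which the files describe as myosin XVB, an unconventional myosin (chr11:115748700-115748759), had 4.99, 6.01, 5.38 and 6.85 on AdLeXis arrays, against 1.36, 2.35, 2.70 and 2.69 on AdGFP arrays. It had the largest bound, at least 7.82-fold higher, and its groups stood 2.29 apart. Kifc5b, a minus-end kinesin of the spindle (chr17:27069447-27069506), ran from 3.63 to 4.36 in AdLeXis and from 0.89 to 2.41 in AdGFP. Its probe shares 36 identical bases with the nameless probe A_55_P1962364, which was not well above background on any array. Among its relatives Kifc1, a spindle kinesin, was called higher (0.74, SE 0.17, limma adjusted p = 0.0221; named after its value was seen), while Kifc2 (0.52) and Kifc3 (-0.21) were not.

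Brca1, of DNA repair by homologous recombination (chr11:101359283-101363319), ran from 3.26 to 4.92 in AdLeXis and from 1.41 to 2.10 in AdGFP, at least 2.09-fold higher. Its namesake Brca2, a partner in the same repair pathway, had 8.54, 8.67, 8.68 and 8.64 on AdLeXis arrays, against 6.77, 7.26, 7.04 and 7.08 on AdGFP arrays. Brca2 was called higher (1.59, SE 0.11, limma adjusted p = 3.26e-04) and passed under all 16 alternatives. The list of cell division genes, written with earlier results of these data known, had 14 of 17 tested members higher and 0 lower, beside 8.74% higher and 8.78% lower over all genes, with a median of 1.06 against -0.0022. Ccnb2, Ccne1 and Cdc20 rose by 1.45, 1.78 and 1.61 (limma adjusted p from 4.25e-04 to 5.13e-04).

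Usp51, a deubiquitinase of histone H2A (chrX:149443874-149443933), ran from 2.93 to 4.25 in AdLeXis and from 0.30 to 2.14 in AdGFP, and its bound was the smallest, at least 1.73-fold. A second Usp51 probe, which overlaps the first by 38 bases, was well above background on 3 AdLeXis and 0 AdGFP arrays with a difference of 2.44. Of 48 tested Usp relatives, 4 were higher (Usp43, Usp49, Usp24 and Usp37, at 1.20, 0.89, 0.39 and 0.91) and 2 lower (Usp18 at -0.60 and Usp12 at -0.33), all 6 named after their values were seen; 17.5% of all genes were called. Usp43 kept its call under 14 of the 15 alternatives that tested it (0.19 and not called under normexp), Usp49 under 9 of 11, Usp37 under 8 of 15, and Usp24, Usp18 and Usp12 under 10, 7 and 6 of 16. Fam212b, now named Inka2 and encoding an inhibitor of the kinase PAK4 (chr3:105521608-105521667), ran from 3.75 to 4.07 in AdLeXis and from 0.62 to 2.06 in AdGFP. Its second probe differed by 1.43 and was well above background on 2 AdLeXis and 0 AdGFP arrays.

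The remaining members have no well-described role. Asphd1 (chr7:134089579-134089638) ran from 3.76 to 3.98 in AdLeXis and from 0.59 to 2.50 in AdGFP, at least 2.05-fold higher; its AdLeXis SD of 0.12 was the smallest of the 19. Gm11578, a transcribed pseudogene in the gene table used (chr1:60652480-60652539), had 3.98, 3.95, 4.38 and 4.85 on AdLeXis arrays, against 1.06, 1.29, 2.70 and 2.33 on AdGFP arrays.

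A_55_P2015122 had 5.13, 5.46, 4.58 and 5.88 on AdLeXis arrays, against 1.07, 0.68, 0.98 and 1.67 on AdGFP arrays. It had the largest measured difference, 4.16, and was at least 5.36-fold higher. Its nearest named probes, Pramef17 at 33.7 kb and Pramel4 at 41.5 kb, stayed below the detection flag on all 8 arrays. A_55_P2056571 had 3.62, 4.52, 4.15 and 4.63 on AdLeXis arrays, against 1.54, 0.76, 0.97 and 1.17 on AdGFP arrays, at least 2.62-fold higher. The nearest named genes, Ctso at 38.6 kb and Tdo2 at 45.9 kb, which encode a cathepsin and tryptophan dioxygenase, were detected on all 8 arrays and differed by 0.21 and -0.02.

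A_55_P2022622 had 6.56, 6.05, 5.34 and 4.20 on AdLeXis arrays, against 1.57, 2.54, 1.65 and 1.37 on AdGFP arrays, at least 6.48-fold higher. The similar LOC101055823 probe shown above was well above background on all 8 arrays and differed by -0.13, and the 2410018L13Rik probe, which also matched at 52 of 59 bases, differed by 0.70. Both values lie below the member's difference of 3.75. The 2410018L13Rik probe was well above background on 4 AdLeXis and 1 AdGFP arrays, and its Rik name was not eligible for the rule. The nearest named probes were LOC101055890 at 54.9 kb and Gm5784 at 124 kb (named after their values were seen). LOC101055890 was well above background on 4 AdLeXis and 4 AdGFP arrays and differed by 1.19. Gm5784 was so on 2 AdLeXis and 0 AdGFP arrays and differed by 0.60.

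Members just inside the minimum difference were Kifc5b at 2.06, Brca1 at 2.10 and Asphd1 at 2.12. Just outside were Asb5 at 1.94, Igsf21 at 1.93 and Apol7d at 1.89. The members peaked most often on AdLeXis replicate 4, which held the highest value for 10 of 19 and the lowest for 1. Replicate 1 held the highest for 4, replicate 2 for 3 and replicate 3 for 2. The members' median was 3.98, 4.0, 4.19 and 4.63 on AdLeXis arrays, against 1.54, 1.16, 1.65 and 1.67 on AdGFP arrays.

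The processing changed the size of the differences. The members' median difference was 2.76 with 75th percentile scaling, 2.68 with median scaling, 2.69 with quantile scaling and 3.51 without scaling. It was 0.37 (0.14 to 0.90) after quantile scaling with normexp background correction of the mean spot signal, at an offset of 50. That correction by construction pulls dim signals together, and 0 of 19 then met the minimum of 2. All 19 stayed higher in AdLeXis under each of these.

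**Figure D4:**
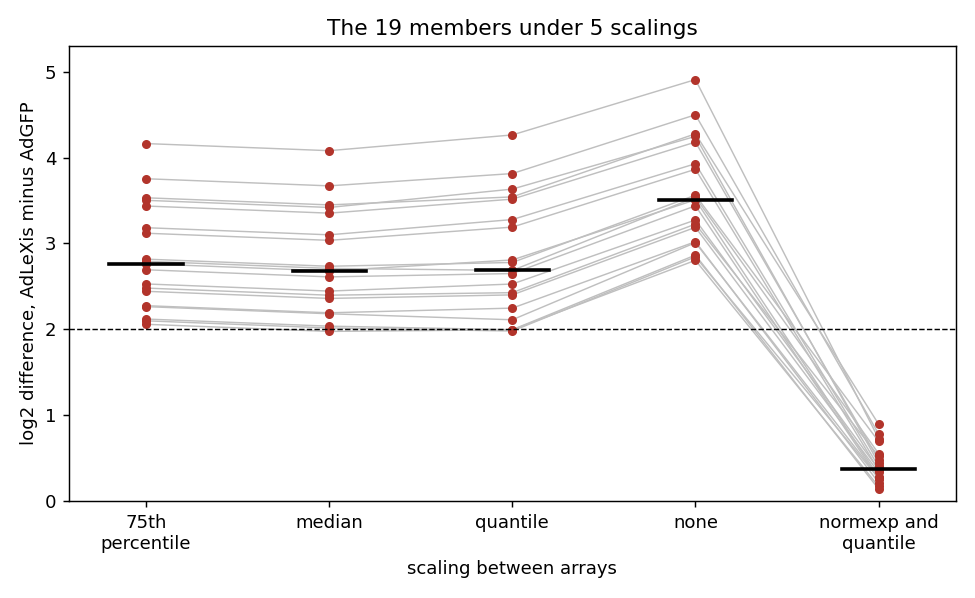
Log2 difference, AdLeXis minus AdGFP (y axis), of the 19 members (points joined by grey lines) under 5 settings (x axis). The last setting joins normexp background correction with quantile scaling. Medians are black bars and the rule's minimum of 2 is dashed. Medians were 2.76, 2.68, 2.69 and 3.51 for the first 4 and 0.37 after normexp.

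Genes related by name to the members were tested in the fit over all genes. Of 443 tested names that share a stem with a member, 29 were higher and 24 lower, with a median of -0.0071, beside 17.5% called over all genes. Of the 53 called, 37 carried the placeholder stem Fam, which joins unrelated genes, and without it 10 of 268 were higher and 6 lower. The 10 of smallest p were led by Fam81a, with 6.29, 5.98, 5.80 and 6.40 on AdLeXis arrays, against 3.46, 2.75, 3.39 and 2.89 on AdGFP arrays (log2 difference 3.0, limma adjusted p = 3.06e-04; 0.88 under normexp). After it came Brca2, Fam109a (0.76), Fam105a (-0.74), Fam83d (1.83; 0.42 under normexp), Fam187b (-0.62), Fam49b (-0.60; -0.27 under normexp), Fam26f (-1.03), Fam65b (-1.01; -0.55 under normexp) and Fam178b (-0.55). The count of 53 called fell to 27 without AdLeXis replicate 4, 34 without AdLeXis replicate 2, 32 without AdGFP replicate 1 and 35 without AdGFP replicate 2. With median scaling the split was 16 higher and 35 lower.

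Genes near the members on the chromosome were tested too. Of 98 tested genes with a probe within 200 kb of a member's probe, 16 were higher and 15 lower, with a median of 0.016. Over all genes, 8.74% were higher and 8.78% lower. Only 14 members had at least 1 such gene, and most calls lay near a few of them. Near Asphd1, 6 of 23 were higher and 2 lower. Near ENSMUST00000040703, 5 of 13 were higher and 2 lower, and near Brca1, 1 of 16 was higher and 4 lower. Rdm1, a RAD52-motif gene within 200 kb of Brca1, had 12.19, 12.35, 12.41 and 12.25 on AdLeXis arrays, against 11.07, 11.10, 11.13 and 11.24 on AdGFP arrays (1.17, limma adjusted p = 3.26e-04). Beside Asphd1 stood Spn, a leukocyte sialoglycoprotein (-0.92), the histone chaperone-binding Hirip3 (0.52) and the kinesin Kif22 (0.71). Beside ENSMUST00000040703 stood Unc13d, of lytic granule release (-0.76), and Smim6 (1.03; 0.58 under normexp).

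Trav3n-3, a T cell receptor segment, fell by 1.55 near Olfr49 (-0.47 under normexp), and Cd28, the costimulatory receptor, fell by 1.03 near Gm11578. Gm5547 near Fam212b and Itpr3, an inositol trisphosphate receptor, near Kifc5b changed by -0.75 (-0.29 under normexp) and -0.58. Neighbours thus changed in both directions. The count of 31 was 16 without AdLeXis replicate 4, 19 without AdLeXis replicate 2, 17 without AdGFP replicate 1 or 2 and 19 without AdGFP replicate 4, and Unc13d lost its call without any 1 AdGFP array. With median scaling the split was 6 higher and 15 lower.

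**Figure D5:**
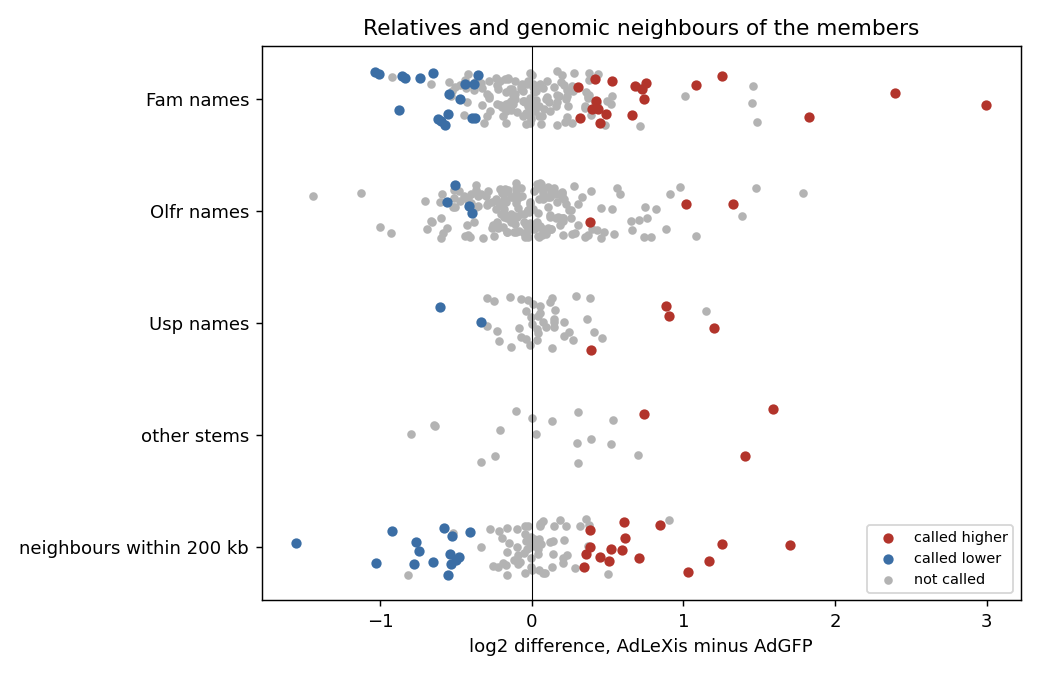
Log2 difference, AdLeXis minus AdGFP (x axis), of tested genes that share a name stem with a member (upper 4 rows) and of tested genes within 200 kb of a member (bottom row); red is called higher, blue called lower and grey not called by limma. Calls lie on both sides of 0 in the Fam row (19 higher, 18 lower) and the neighbour row (16 higher, 15 lower).

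Marker lists of cell types, also written with earlier results of these data known, were counted on the same arrays. Over all genes, 8.74% were called higher and 8.78% lower, with a median of -0.0022. Of 10 hepatocyte markers 8 were lower and 0 higher, and the list's summed level was 20.6 to 20.8 on AdLeXis arrays and 21.2 to 21.3 on AdGFP arrays (log2). The median of the hepatocyte list was -0.46, but it was -0.03 with 1 marker lower under quantile scaling, and -0.12 with 1 lower and 1 higher under normexp with quantile scaling. Of 13 T and natural killer cell markers 12 were lower, summing to 13.4 to 13.5 on AdLeXis arrays and 14.3 to 14.4 on AdGFP arrays (median -1.04). Of 11 Kupffer cell markers 5 were lower and 0 higher (median -0.43), and 3 were lower without AdLeXis replicate 2, AdGFP replicate 1 or AdGFP replicate 2. Among markers of cell types foreign to liver, limma called 0 of 7 tested male germ cell markers (0 at an unadjusted p under 0.05; Ddx4, Dazl, Ldhc and Odf1 detected on no array), 0 of 5 kidney tubule markers (0 unadjusted), 0 of 4 skeletal muscle markers (1 unadjusted) and 0 higher with 2 lower of 7 neuron markers. Of 5 enterocyte markers 2 were higher and 1 lower (median 0.18; 0 higher without AdLeXis replicate 2, AdLeXis replicate 4 or AdGFP replicate 3), and of 5 keratinocyte markers 1 was higher and 0 lower (median 0.19). The part of cell composition in the members' detection was not tested.

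In 2 lists of response genes, also written with earlier results of these data known, more genes were higher than lower. Over all genes, 8.74% were higher and 8.78% lower. Of 11 tested targets of the xenobiotic receptors CAR and PXR, 6 were higher and 0 lower (median 1.23), led by Cyp2b10 at 2.51, Cyp2b9 at 2.75 and Cyp2c55 at 1.37 (limma adjusted p from 0.00122 to 0.00319). Of 17 tested p53 targets, 9 were higher and 1 lower (median 0.41). Phlda3 rose by 1.96, Ccng1 by 1.20 and Cdkn1a by 1.60. These lists hold no member of the 19.

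Base composition and promoter motifs were set beside those of the whole array or gene table. Probe G and C content was 35% to 55% with a median of 40%, against a median of 43.3% over all probes. RefSeq promoters of GRCm38.p6, from 250 bases before to 50 after the start, were matched for 10 members. Their median G and C content was 53.8%, against 52.7% over 27025 genes. On either strand, CCAAT occurred in 5 of 10 (50%, against 37.9% of all), GGGCGG in 2 (20%, against 35.9%) and TATAAA in 1 (10%, against 14.2%). A match is only a description of the letters.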

How the data were processed

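Liver RNA of 4 AdLeXis and 4 AdGFP samples was hybridised to 1-colour Agilent arrays. The deposited files give the linear intensity of each spot; per the file headers the processed intensity came from Feature Extraction 11.5.1.1, was background-subtracted and detrended, and was not scaled between arrays. Probe coordinates are mm9 per the file headers. The deposited value table equals the processed intensity (largest relative difference 0 on all 8 arrays). All 8 arrays carry 1 scan time, 0 spots were saturated, and the number of arrays limits the precision.

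Log2 intensity was scaled on the 75th percentile of the 59305 non-control spots of an array, with the mean percentile added back, and spots of a probe were averaged. A probe counted as flagged when any of its spots was. For the test, outlier spots were left out, probes well above background on at least 4 arrays were kept, each gene was represented by its brightest probe, and limma 3.58.1 in R 4.3.3 (lmFit, eBayes) compared groups two-sided over 23951 genes with Benjamini-Hochberg adjustment at 0.05. The fit was tested on simulated data. It called 16 of 50 genes given a log2 change of 0.585, 36 of 50 at 1.0 and 48 of 50 at 2.0. Of 23751 genes given no change it called 11. The simulation changed only 50 genes at each size, whereas 17.5% of genes were called in the data. Its adjustment was therefore stricter, and these rates do not carry over to the data. A gene not called may still have changed by 0.585 to 1.0. Similar probes were found with blastn 2.17.0. A bound sets the AdLeXis mean against the mean of, per AdGFP array, the higher of the lowest well-above-background spot and the probe's own value. Members and lists were chosen with earlier results of these data known.

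Named were every member, with each array's value for the 12 of largest bound and for members within 200 kb of another, the 3 names on each side of the minimum difference, up to 10 called relatives and neighbours by smallest p, and up to 3 members of a list; names outside this are marked. The replicate numbers in the titles recur in both groups, but deviations of same-numbered samples correlated at 0.0093, 0.065, 0.11 and 0.0026, so no block was used.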

Additional observations from a re-analysis of the deposited data

Results flagged for a closer look

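In 38 groups of 4 values (19 members in 2 groups), 2 single AdGFP values stood apart by Dixon's ratio. The same values chose the members, so this count cannot be set against the 1 in 20 that chance gives. Pcdh20 was lowest on AdGFP replicate 2, at 0.55, against 1.11 to 1.16 on the other AdGFP arrays. Kifc5b was lowest on AdGFP replicate 4, at 0.89, against 2.26 to 2.41 on the other AdGFP arrays. Both values lie under the detection flag.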

How the results depend on the processing

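The number of members was 19 and stayed within 1.5 times of that with median scaling (18), quantile scaling (16), the deposited value table (19), outlier spots left out (17), flags averaged over spots (19, chosen after seeing the data) and the flag allowed on 1 AdGFP array (28). It was 0 with normexp and quantile scaling, 42 without scaling, 56 with a minimum difference of 1, 7 with a minimum of 3, 8 with the softer flag and 32 with detection on at least 3 of 4 AdLeXis arrays. Leaving out 1 array gave 23 to 32, fewer arrays having to meet the rule. The members' median difference of 2.76 became 0.37 with normexp and 3.51 without scaling, and ran from 2.49 to 2.90 without single arrays. Genes called numbered 4196 (2093 higher, 2103 lower), with 1155 higher and 2676 lower under median scaling and 2492 to 4120 called without single arrays. Called relatives numbered 53, 16 without the Fam names (chosen after seeing the data) and 27 to 47 without single arrays. Called neighbours numbered 31, 18 with no filter on dim probes, 7 of 24 within 50 kb, 57 of 224 within 500 kb and 16 to 29 without single arrays. With the replicate number as a block, calls were 3143 over all genes, 43 among relatives and 22 among neighbours; the samples share only a number, and not every sample correlated best with its own number. Why counts moved was not tested beyond the number of arrays or genes each alternative leaves. Values near the detection limit, where all members lie in AdGFP, limit the sizes to bounds, which were computed under the main scaling only.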
